A study of Drosophila melanogaster with 12 samples.

Results

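The nucleoporins are the proteins that build the nuclear pore complex, the channel through which all mRNAs and ribosomal subunits leave the nucleus. The nucleoporin mRNAs were taken as the genes whose Release 6 symbol begins with Nup and a digit, together with mbo, Elys, Mgtor (Megator, listed under its older symbol Mtor), Gp210 and Ndc1. This gave 26 of the 17023 genes counted, 25 matched by current symbol and 1, Mgtor, by synonym, and all 26 passed the filter on low counts that left 10035 genes. The Drosophila ovary samples came from 3 genotypes, each with 2 input libraries and 2 polysome libraries, 12 libraries in 6 groups. Polysomes are mRNAs carrying several ribosomes, separated on a sucrose gradient, and 20% of each lysate was kept as input.

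In Nop60B RNAi ovaries a UAS hairpin against Nop60B, the pseudouridine synthase of the H/ACA snRNP complex, was expressed with a nosGAL4 driver, whose nanos promoter is active in the germline. The germarial control, labelled YWT or young control, was UAS-Dcr2;nosGAL4 without the hairpin. Both were dissected within 2 hours of eclosion, from pooled ovaries. The cyst control carried bam RNAi under nosGAL4 together with hs-bam, and 1-day-old females received repeated 2-hour heat shocks so that bam was induced and cysts could differentiate. All 3 genotypes thus carried a nosGAL4 driver, and the heat shock was given only to the cyst control. No source used here states whether the 2 replicates of a group were separate crosses, so p-values measure the spread between these libraries, which may be technical. Levels are given as CPM, each gene's count scaled to the TMM-adjusted library size, and in whole ovaries fewer cells of a type and less RNA per cell cannot be told apart.

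A nuclear pore is built from repeated subcomplexes. An outer ring, the Y complex, and an inner ring form the scaffold, membrane proteins anchor it, channel proteins with phenylalanine-glycine (FG) repeats form the permeability barrier, and cytoplasmic filaments and a nuclear basket project from its faces. In the Drosophila ovary, nurse cells and oocytes also store nucleoporins in annulate lamellae, stacked membranes with pores, which are later used by the early embryo.

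FG repeats are shown here because they are the sequence feature for which channel nucleoporins are known, and because they are frequent among the members. In proteins translated from the longest annotated coding sequence, 6 of 26 members held at least 10 FG pairs, 23.1% against 0.501% of the 8975 other tested coding genes. Nup98-96 had 48 FG pairs, of which 6 were in GLFG form, Nup214 had 45, Nup153 had 28 with 10 FxFG, Nup358 had 27 with 8 FxFG, Nup54 had 25 and Nup58 had 17. The count also depends on protein length. The channel protein Nup62 had 5 in 394 residues (1.27 per 100), and the inner ring protein Nup205 had 6 in 2090 (0.287 per 100). Nup98-96, listed with the outer ring, also encodes a channel protein. The 6 members with at least 10 FG pairs were channel and filament proteins, Nup153 of the basket and Nup98-96. Mgtor, Nup43 and Nup75 had 0. The 120-base coding stretches with the most FG pairs in the members that can be shown are given below, 5′ to 3′ from the reference genome, with each FG codon pair in capitals; adjoining pairs merge into one run.
Nup98-96: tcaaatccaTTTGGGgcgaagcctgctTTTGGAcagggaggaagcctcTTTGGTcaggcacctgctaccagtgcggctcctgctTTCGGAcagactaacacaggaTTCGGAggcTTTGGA
Nup58: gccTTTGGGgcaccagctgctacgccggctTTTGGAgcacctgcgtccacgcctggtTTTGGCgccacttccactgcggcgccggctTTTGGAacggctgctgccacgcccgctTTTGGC
Nup153: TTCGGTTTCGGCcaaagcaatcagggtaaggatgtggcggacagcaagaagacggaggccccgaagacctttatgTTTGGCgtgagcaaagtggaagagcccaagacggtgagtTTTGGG
Nup358: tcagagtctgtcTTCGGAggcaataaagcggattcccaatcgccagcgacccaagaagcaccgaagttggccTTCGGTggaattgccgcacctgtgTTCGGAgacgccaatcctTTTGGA
The stretches lie in coding exons of Release 6 (dm6). Nup98-96 was read from chr3R:23779941-23780060, minus strand (residues 349 to 388), with 6 FG pairs. Nup58 was read from chr3R:19645351-19645470, plus strand, with 5. Nup153 was read from chrX:16604398-16604517, plus strand, with 4, and Nup358 from chr3R:25257313-25257432, plus strand, with 4. The TTT or TTC and GGN codons recur while the bases between them differ from gene to gene.

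The targeted gene was examined first. The inputs held 1553 and 1776 CPM of Nop60B mRNA for the germarial control, 446 and 462 for Nop60B RNAi, and 336 and 748 for the cyst control. Against the germarial control its log2 fold change was -1.88 ± 0.38 in input (SE, edgeR quasi-likelihood test, adjusted p = 0.0242) and -1.94 ± 0.38 in polysomes (adjusted p = 0.0155). The log2 differences from the cyst control were -0.26 ± 0.37 (adjusted p = 0.747) and -0.18 ± 0.37 (adjusted p = 0.766). The cyst control was itself below the germarial control, at -1.62 ± 0.38 in input (adjusted p = 0.0394), so Nop60B mRNA told the Nop60B RNAi libraries apart from the germarial control and not from the cyst control.

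Total counts ranged from 2780781 to 21626125, with a median of 13615213. The shallowest library, cyst control polysome replicate 1, held counts for 7394 genes against up to 11875 in the others. The 2 cyst control polysome libraries correlated at r = 0.79 across genes, the lowest of the 6 groups. Marker mRNAs differed between genotypes. Over the whole list of germline markers, summed input CPM was 4389 and 3992 for the germarial control, 309 and 325 for Nop60B RNAi, and 1930 and 4369 for the cyst control. Sheath muscle markers summed to 4923 and 5734, to 31406 and 29021, and to 18069 and 4465 CPM in the same order. Hemocyte markers summed to 495 and 442, to 4540 and 4183, and to 1956 and 552 CPM in the same order. In the germline sum, osk (1844 and 1424 CPM) and bru1 (1029 and 1124) were the largest terms for the germarial control input. Of the 13 germline markers tested, 12 were below 0 in Nop60B RNAi input against the germarial control, with a median log2 fold change of -3.16. The Nop60B RNAi ovaries were therefore low in germline mRNA and high in muscle and hemocyte mRNA, and the cyst control lysates were unlike each other.

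**Figure D1:**
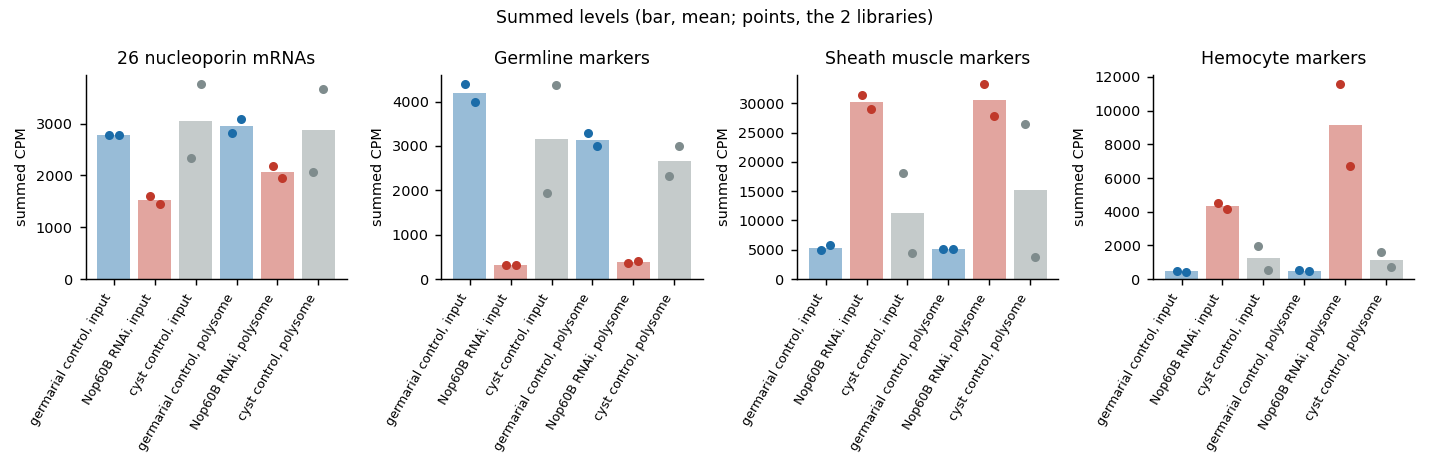
Summed CPM (y axis) of the 26 nucleoporin mRNAs and of the germline, sheath muscle and hemocyte marker lists in each group; bars are means and points are the 2 libraries. The nucleoporin sum in Nop60B RNAi input, 1595 and 1443 CPM, lay below both germarial control inputs, 2773 and 2789, while the germline sum differed by more.

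The summed level of the 26 nucleoporin mRNAs was 2781 ± 12 CPM (SD, n = 2) in germarial control input and 1519 ± 107 in Nop60B RNAi input. In polysomes the sums were 2957 ± 196 and 2074 ± 165 CPM. The cyst control libraries gave 2332 and 3761 CPM in input and 2064 and 3679 in polysomes, so replicate 1 was lower than replicate 2 in both fractions. The germline marker sum stood in the same order in those 2 lysates, 1930 and 4369 CPM in input, with spn-E, krimp, bgcn and tej in the opposite order. The part of germline mRNA in the nucleoporin levels was not tested.

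Between genes, levels were compared per kilobase of exon (RPKM). In germarial control input the channel protein Nup62, at 114 ± 4.7 RPKM (SD, n = 2), and the basket protein Nup50, which in vertebrates helps to release import cargo, at 107 ± 5.2, stood above all other members. Nup44A, the fly Seh1, which also serves the GATOR complex upstream of TORC1, followed at 63.6 ± 4.2. The lowest were Elys, which in vertebrates brings the Y complex to chromatin, at 7.72 ± 0.026, Mgtor at 11.4 ± 0.37, Nup93-2 at 12.3 ± 1.6, and Nup188 at 13.0 ± 1.4. Nup62 and Nup50 did not differ beyond their spread, nor did Mgtor, Nup93-2 and Nup188. Nup62 ranked first in all 6 groups, and Nup50 ranked second in 5 of them. Other places shifted between groups: from germarial control input to cyst control input, Nup107 went from rank 4 to rank 24 of 26 and Mgtor from rank 25 to rank 6.

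**Figure D2:**
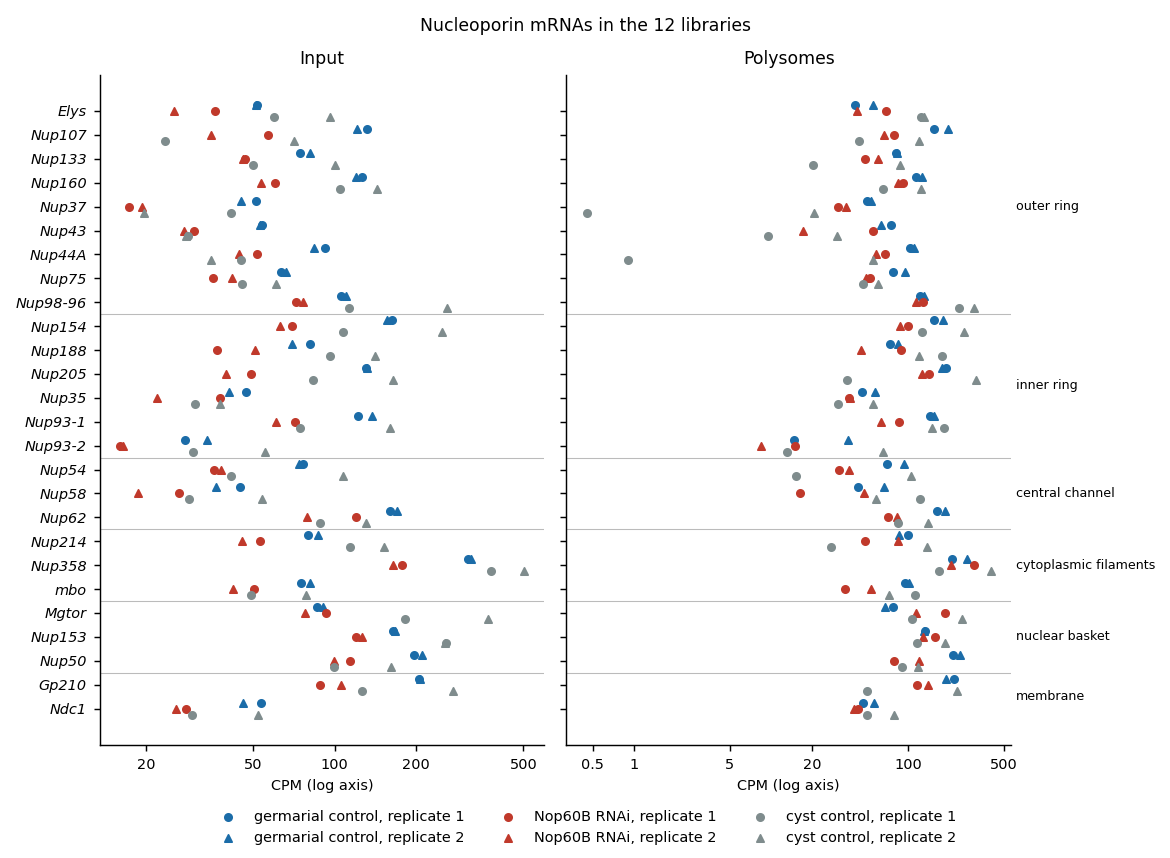
CPM of each nucleoporin mRNA (x axis, log scale) in the 12 libraries, input on the left and polysomes on the right, grouped by place in the pore; colours mark genotypes and shapes the replicates. In input, both Nop60B RNAi points lie left of both germarial control points for 25 of 26 members, Mgtor being the exception, and in polysomes replicate 1 of the cyst control spreads farthest.

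The comparison of Nop60B RNAi with the germarial control in input asked how pore mRNAs stood in the depleted ovary. All 26 members had a log2 fold change below 0, from -1.56 for Nup205 to -0.05 for Mgtor, with a median of -0.88, while the median over the 10035 genes was 0.02 and 48.8% of them were below 0. Both Nop60B RNAi libraries were below both germarial control libraries for 25 of 26 members, against 38% of all genes. None of the 26 reached an adjusted p under 0.05 in the main fit, which called 4.16% of all genes. At an unadjusted p under 0.05 there were 5 members, all lower. Counts at an unadjusted p alone are given here and below without the share of all genes, so they have no background to be read against. By the study's criterion, a fold of at least 2 with an unadjusted P under 0.05, 3 members were lower, Nup107, Nup154 and Nup160, against 6.35% of all genes. The difference thus had the same direction in all 26 members, at sizes that varied, and no single member passed the test across all genes. Germline markers, at 309 and 325 CPM against 4389 and 3992, moved in the same direction in these libraries, and their part in the nucleoporin levels was not tested.

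The number of calls depended on the fit and on the cyst control libraries, which share the estimate of spread. DESeq2 called 3 members lower, where it called 5.21% of all genes lower. With limma voom and quality weights the count was 25, where 26.6% of all genes were called lower and 56.6% in either direction. On only the 4 libraries compared, edgeR called 24 members lower, with 29.5% of all genes lower and 61.3% in either direction. Without cyst control lysate 1 (an alternative added after the data were seen) edgeR called 17 lower (14.3% of all genes), and without replicate 1 or replicate 2 of the cyst control polysomes 9 each (7.73% and 7.66% of all genes). The median over members stayed between -0.98 and -0.82 in all of the alternatives run, so the settings moved the calls more than the size.

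By place in the pore, the input medians were close. The outer ring had a median of -0.88 over 9 members, the inner ring -0.94 over 6, the membrane proteins -0.98 over 2, the central channel -0.84 over 3 and the cytoplasmic filaments -0.76 over 3. The nuclear basket stood nearest 0, with a median of -0.43 over 3 members. The 6 members with at least 10 FG pairs had a median of -0.80 and the other 20 of -0.88. No part of the pore was higher in the depleted ovary.

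The 3 members with the smallest unadjusted P in this comparison came from 3 parts of the pore. Nup160, a Y complex scaffold protein, was at 126 and 120.3 CPM in germarial control input and at 60.4 and 53.3 in Nop60B RNAi input (log2 fold change -1.12 ± 0.36, SE, edgeR adjusted p = 0.112). Nup154, the fly Nup155, whose mutants are female sterile, was at 163 and 156 CPM against 69.4 and 62.8 (-1.27 ± 0.43, adjusted p = 0.129). Nup50 was at 196 and 210.2 CPM against 114 and 99.3 (-0.93 ± 0.34, adjusted p = 0.155). In each of the 3, the replicates lay close together and the groups did not overlap.

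Other members repeated this pattern. Nup205, a large inner ring scaffold protein, was at 131 and 132 CPM in germarial control input and at 49.1 and 39.7 in Nop60B RNAi input, the lowest log2 fold change of the set. Nup107, a Y complex protein, was at 132 and 121 CPM against 56.7 and 34.8. Nup93-1, which links the inner ring to the channel, was at 122 and 137 CPM against 71.4 and 60.6. In all 3 the Nop60B RNAi libraries were well under the germarial control. Gp210, the membrane glycoprotein, was at 205 and 206 CPM against 88.6 and 105, and Nup358, the filament protein that carries Ran-binding domains, at 311 and 320.2 against 178 and 165. The exception was Mgtor, the fly Tpr, a coiled-coil protein of the basket that also joins the spindle matrix. Mgtor was at 86.3 and 90.4 CPM in germarial control input and at 92.9 and 77.4 in Nop60B RNAi input, so its groups overlapped.

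The remaining members were described by their means (n = 2, SD). In the outer ring, Nup133 stood at 77.5 ± 4.7 CPM in germarial control input and 46.1 ± 0.55 in Nop60B RNAi input, Nup75 at 64.7 ± 2.1 and 38.6 ± 4.4, Nup98-96 at 108 ± 3.2 and 74.1 ± 3.4, and Elys at 51.3 ± 0.17 and 30.8 ± 7.5. The small beta-propeller proteins Nup37, Nup43 and Nup44A were at 48.1 ± 4.2, 53.4 ± 0.88 and 87.7 ± 5.8 CPM in the control and at 18.4 ± 1.4, 28.8 ± 1.7 and 47.8 ± 5.1 after depletion. All 7 were lower in both depleted libraries. In the inner ring, Nup188 was at 75.4 ± 8.1 and 43.8 ± 9.9 CPM, Nup35 at 43.8 ± 4.6 and 29.9 ± 11, and Nup93-2 at 30.7 ± 4.0 and 16.3 ± 0.35. In the channel, Nup54 was at 75.2 ± 1.8 and 36.9 ± 1.5 CPM, Nup58 at 40.6 ± 5.8 and 22.6 ± 5.5, and Nup62 at 165 ± 6.9 and 99.6 ± 29. The other parts were also lower, Nup153 by the smallest fold. The filament proteins Nup214 and mbo, the fly Nup88, were at 83.2 ± 5.1 and 78.4 ± 4.3 CPM in the control and 49.3 ± 5.3 and 46.3 ± 5.9 after depletion. Nup153, which in vertebrates anchors the basket, was at 166 ± 2.8 and 123 ± 3.8 CPM, and the membrane anchor Ndc1 at 49.6 ± 5.2 and 27.0 ± 1.7.

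**Figure D3:**
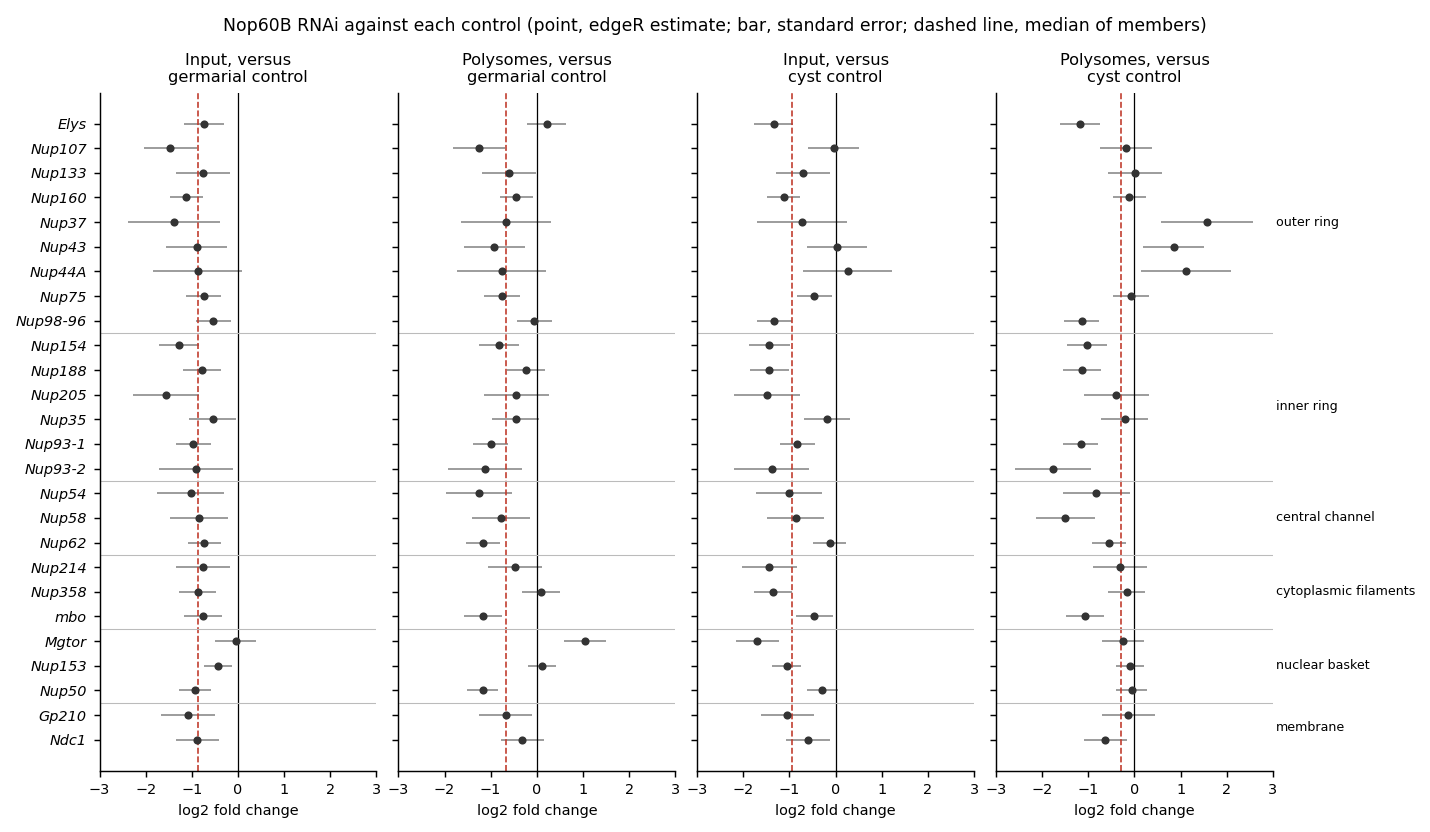
Log2 fold change of each nucleoporin mRNA in Nop60B RNAi against each control (x axis), in input and in polysomes; points are edgeR estimates, bars standard errors and the dashed line the median of the 26 members. The medians are -0.88 and -0.67 against the germarial control in input and polysomes, and -0.94 and -0.28 against the cyst control.

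In polysomes, the comparison with the germarial control asked whether the mRNAs carried by ribosomes followed the input. The median log2 fold change was -0.67 over the members and -0.08 over all genes, and 22 of 26 members were below 0, against 52.1% of all genes. Both Nop60B RNAi libraries were below both controls for 18 members, against 34.6% of all genes. In edgeR 0 of 26 had an adjusted p under 0.05, where 8.64% of all genes did, and 5 lower and 1 higher had an unadjusted p under 0.05. By the study's criterion 4 members were lower (Nup107, Nup50, Nup62 and mbo), against 11.7% of all genes, and 1 was higher, Mgtor, against 14.1%. DESeq2 called 3 lower (9.77% of all genes), and edgeR without cyst control lysate 1 called 11 lower (20.7%) and 1 higher (19.5%). Without replicate 1 of the cyst control polysomes it called 5 lower (13.5%) and 1 higher (14.9%), and without replicate 2 it called 6 lower (14.2%). Without the cyst control input replicates 1 and 2 it called 1 and 2 lower (3.93% and 4.34% of all genes). The share past the criterion was near that of all genes on the lower side and under it on the higher side. The shared displacement seen in input was smaller here.

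Nup50 was at 215 and 239 CPM in germarial control polysomes and at 79.9 and 121 in Nop60B RNAi polysomes (log2 fold change -1.18 ± 0.34, SE, edgeR adjusted p = 0.0573). Nup62 was at 162 and 186 CPM against 71.3 and 83.3 (-1.17 ± 0.36, adjusted p = 0.0714). The filament protein mbo, needed in flies for the nuclear accumulation of Rel immune factors, was at 95.6 and 101 CPM against 34.5 and 53.7 (-1.16 ± 0.41, adjusted p = 0.103). These 3 short mRNAs were lower in both depleted polysome libraries, and none passed the test. Mgtor went the other way, at 78.5 and 67.8 CPM in the control and 186 and 114 in Nop60B RNAi polysomes, without overlap. Elys, at 41.0 and 56.0 CPM against 69.8 and 42.6, Nup153, at 133 and 131 against 158 and 128, and Nup358, at 211 and 269 against 304 and 207, overlapped between groups. The 4 members above 0 were thus Mgtor, Elys, Nup153 and Nup358. Nup98-96 was also near 0, at 122 and 130.4 CPM in the control and 129 and 114 after depletion.

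In input against the cyst control the median was -0.94 (all genes -0.01), with 24 of 26 members below 0, against 50.5% of all genes. Both Nop60B RNAi libraries were below both cyst controls for 19 members, against 30% of all genes. Again 0 of 26 had an adjusted p under 0.05 in edgeR, where 4.5% of all genes did. At an unadjusted p under 0.05 there were 10, all lower, with no share of all genes given. DESeq2 called 8 lower (7.84% of all genes). edgeR called 16 lower without cyst control lysate 1 (16.3% of all genes), 11 and 10 without replicates 1 and 2 of the cyst control polysomes (11.4% and 10.8%), and 3 without replicate 1 of the cyst control input (2.39%). By the study's criterion 9 members were lower, against 10.2% of all genes. The size rested on the cyst control lysates, since the median was -0.34 without replicate 2 of the cyst control input and -1.26 without replicate 1. The cyst control inputs held 26360 and 15103 CPM of heat shock genes, against 421 and 385 in the Nop60B RNAi inputs, and the part of heat shock in the difference cannot be told apart from that of genotype and age.

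Mgtor led this comparison, at 183 and 369 CPM in cyst control input against 92.9 and 77.4 in Nop60B RNAi input (log2 fold change -1.70 ± 0.46, SE, edgeR adjusted p = 0.0654). Nup98-96, whose single polyprotein is cut into the channel protein Nup98 and the scaffold protein Nup96, was at 113 and 260.3 CPM against 71.7 and 76.5 (-1.33 ± 0.38, adjusted p = 0.0720). Nup153 was at 259 and 256 CPM against 120.5 and 126 (-1.06 ± 0.31, adjusted p = 0.0740). All 3 lay below both cyst control libraries, by amounts that depended on the lysate for Mgtor and Nup98-96 and hardly for Nup153. The small outer ring proteins were not clearly apart from the cyst control. Nup37 was at 41.2 and 19.8 CPM in cyst control input against 17.4 and 19.4. Its groups did not overlap, but replicate 2 of the cyst control was nearly level with Nop60B RNAi. Nup43, at 28.6 and 28.1 against 30.1 and 27.6, and Nup44A, at 44.9 and 34.8 against 51.4 and 44.2, overlapped.

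In polysomes against the cyst control the median was -0.28 (all genes -0.18) and 22 of 26 members were below 0, against 54.5% of all genes. Both depleted libraries were below both controls for 9 members, against 20.6% of all genes. edgeR gave 0 adjusted p under 0.05 among the 26, against 9.5% of all genes, with 7 lower at an unadjusted p under 0.05, and DESeq2 called 3 lower (13.3% of all genes). The same 7 met the study's criterion, against 16.7% of all genes. The direction depended on 1 library: without replicate 2 of the cyst control polysomes the median was 0.34 and 10 of 26 were below 0, and without replicate 1 it was -0.77. The calls then were 4 lower and 7 higher without replicate 2 (15.3% and 24.5% of all genes) and 5 lower without replicate 1 (11.2%). Without replicate 1 or 2 of the cyst control input they were 2 lower each (6.03% and 5.83%), and without cyst control lysate 1 they were 11 lower (18.1%). Nup93-1 was at 184 and 151 CPM in cyst control polysomes and 85.6 and 64.0 in Nop60B RNAi polysomes (log2 fold change -1.16 ± 0.38, SE, edgeR adjusted p = 0.0787). Nup98-96 was at 236 and 302 CPM against 129 and 114 (-1.14 ± 0.38, adjusted p = 0.0809), and Elys at 125 and 130.3 against 69.8 and 42.6 (-1.18 ± 0.43, adjusted p = 0.105). These 3 had cyst control replicates close together, unlike Nup37 and Nup44A, which had 1 and 2 counts in replicate 1 and 357 and 960 in replicate 2.

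Between the 2 controls the members showed no common direction, with medians of -0.04 in input (all genes 0.20) and -0.13 in polysomes (all genes 0.10). In input edgeR gave 0 adjusted p under 0.05 among the 26 against 4.06% of all genes, with 1 lower and 1 higher at an unadjusted p under 0.05, and DESeq2 called 1 higher (6.99% of all genes). Without replicate 1 or 2 of the cyst control polysomes edgeR called 2 lower (9.63% and 9.90% of all genes) and 1 higher (11.4% and 10.9%) in input. By the study's criterion Mgtor was higher in the cyst control (1.64 ± 0.46, SE, adjusted p = 0.0723), against 9.85% of all genes, and Nup107 lower (-1.42 ± 0.57, adjusted p = 0.196), against 7.46%. The next smallest P was that of Nup98-96, at 0.80 ± 0.38 (adjusted p = 0.272). In polysomes 0 of 26 had an adjusted p under 0.05 in edgeR, against 4.85% of all genes, with 2 lower and 3 higher at an unadjusted p under 0.05, and DESeq2 called 2 lower (6.58% of all genes) and 2 higher (11.4%). Without replicate 2 of the cyst control polysomes edgeR called 12 lower (25% of all genes) and 1 higher (17.2%) in polysomes, with a median of -0.96. Without cyst control lysate 1 it called 3 lower (9.61%) and 4 higher (9.93%), with a median of 0.14. In input the median was -0.58 without replicate 2 of the cyst control input and 0.35 without replicate 1. By the criterion 2 were lower, Nup50 (-1.12 ± 0.34, adjusted p = 0.0859) and Nup43, against 6.96% of all genes. The 3 higher were Elys (1.40 ± 0.43, adjusted p = 0.0859), Nup98-96 (1.09 ± 0.38, adjusted p = 0.118) and Mgtor, against 14% of all genes. Of these, Mgtor met the criterion in both fractions, Nup107 in input only, and Nup98-96 and Nup50 in polysomes only. None passed the adjusted test, and such small counts beside these shares of all genes are not read as a result about the members. The limits on the lysates of the heat-shocked cyst control given above apply. Both comparisons with Nop60B RNAi share these control libraries.

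The ratio of polysome to input CPM in each lysate compares an mRNA's level in the polysome library with its level in the input library. Both levels are relative to the other mRNAs of their library. The ratio therefore gives neither the share of an mRNA on ribosomes nor a change in total polysomes. The study's polysome traces showed fewer polysomes after Nop60B depletion than in the control. In the germarial control the log2 ratio had a median of 0.12 over the members and 0 over all genes, and ranged from -0.39 for Nup358 to 0.48 for Nup205. In Nop60B RNAi the median was 0.43 (all genes -0.09), with 21 of 26 members above 0 and 5 below, while 54.6% of all genes were below 0. Both polysome libraries were above both inputs for 15 members, against 20.1% of all genes. In the cyst control the median was -0.03, and -0.19 with the lysate as a replicate block. It was -0.74 without replicate 2 of its polysomes, where 11 members and 21.1% of all genes were called lower, and 0.40 without replicate 2 of its input. In edgeR 0 of 26 had an adjusted p under 0.05 for the ratio in any genotype, and 0% of all genes did. At an unadjusted p under 0.05 there were 0 members in the germarial control, 1 in Nop60B RNAi (higher) and 1 in the cyst control (lower), and DESeq2 called 0 in each. Without cyst control lysate 1, 2 members were called higher in Nop60B RNAi, against 1.59% of all genes. The Nop60B RNAi polysomes thus held relatively more nucleoporin mRNA than their inputs, while both fractions stayed below the germarial control.

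Nup205 had the highest ratio in Nop60B RNAi, 2.92 and 3.18, against 1.45 and 1.34 in the germarial control and 0.434 and 1.91 in the cyst control. Its log2 ratio in Nop60B RNAi, 1.60 ± 0.71 (SE, edgeR adjusted p = 0.529), was the only one past the study's criterion, against 0.698% of all genes. Elys followed, with ratios of 1.94 and 1.67 in Nop60B RNAi and 0.796 and 1.09 in the germarial control (log2 ratio in Nop60B RNAi 0.87 ± 0.42, adjusted p = 0.574). Nup98-96 had 1.81 and 1.50 against 1.16 and 1.19 (0.72 ± 0.37, adjusted p = 0.599). In all 3 both depleted lysates were above both germarial control lysates. The members with the smallest unadjusted P in the germarial control were Nup153 at -0.33 ± 0.30, Nup75 at 0.42 ± 0.38 and Nup358 at -0.39 ± 0.40 (adjusted p = 1 for each). In the cyst control they were Nup153 at -0.76 ± 0.30 (adjusted p = 0.867), Nup58 at 1.14 ± 0.63 (adjusted p = 0.880) and Elys at 0.71 ± 0.42 (adjusted p = 0.905).

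The change of this ratio between genotypes was tested as an interaction. Against the germarial control its median over the members was 0.24 (all genes -0.08), with 18 of 26 above 0 and 8 below, while 54.2% of all genes were below 0. Against the cyst control the median was 0.35 (all genes -0.11), also with 18 above 0 and 8 below, while 54.1% of all genes were below 0. Between the controls it was -0.12, and -0.36 with the lysate as a replicate block. Leaving out single libraries kept the first between 0.16 and 0.40, while the second ran from -0.08 without replicate 2 of the cyst control input to 1.14 without replicate 2 of the cyst control polysomes, where 11 members and 17% of all genes were called higher. That between the controls ran from -0.80 to 0.26 without the same 2 libraries in turn, with 7 members and 16.8% of all genes called lower without the polysome library. In edgeR 0 of 26 members and 0% of all genes had an adjusted p under 0.05 in each of the 3 comparisons. DESeq2 called 0 members in each, and the counts at an unadjusted p under 0.05 were 0, 2 and 0. The 3 smallest unadjusted P against the germarial control belonged to Mgtor (1.09 ± 0.64, SE), Nup358 (0.97 ± 0.57) and Elys (0.95 ± 0.60), each with adjusted p = 1.00. Against the cyst control they were Nup153 (0.97 ± 0.43), Mgtor (1.45 ± 0.64) and Nup358 (1.19 ± 0.57), each with adjusted p = 0.767. Mgtor alone met the study's criterion there, against 1.42% of all genes. Between the controls they were Elys (0.79 ± 0.60), Nup37 (-1.57 ± 1.4) and Nup214 (-0.84 ± 0.83), with adjusted p = 1 for each. Mgtor and Nup358 were among the 3 in both comparisons of Nop60B RNAi, which share the Nop60B RNAi libraries.

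Mgtor, Nup358, Elys and Nup153 have long coding sequences, and length was not used to choose the members. The coding length of the 26 ran from 960 to 8154 nucleotides, with a median of 2502, against 1353 for the other tested coding genes. Across the 26 members, Spearman's rho between coding length and the change of ratio in Nop60B RNAi against the germarial control was 0.635, and across 9001 tested coding genes it was 0.262. These points share their 8 libraries, and rho is given as a description. For the ratio itself, rho over the members was -0.462 in the germarial control, 0.439 in Nop60B RNAi and -0.0742 in the cyst control. Over all tested coding genes rho was -0.0236, 0.251 and -0.186 in the same order.

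A cut at 4000 nucleotides, chosen after the values were seen, splits the members into 11 long and 15 short mRNAs. The change of ratio was above 0 for all 11 long members, from 0.28 to 1.12 with a median of 0.55, and for 7 of the 15 short ones, with a median of -0.01. Among all tested coding genes, the 697 long ones had a median of 0.43 with 74.0% above 0, and the 8304 shorter ones a median of -0.12 with 43.4% above 0. By their medians, long coding genes as a whole thus lay above short ones, as did the long nucleoporins. In polysomes against the germarial control, the long members had a median log2 fold change of -0.23 and the short ones of -0.92, while in input the medians were -0.78 and -0.88. The long mRNAs of all genes differed from the members in level, with a median of 0.18 in input and 0.57 in polysomes.

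**Figure D4:**
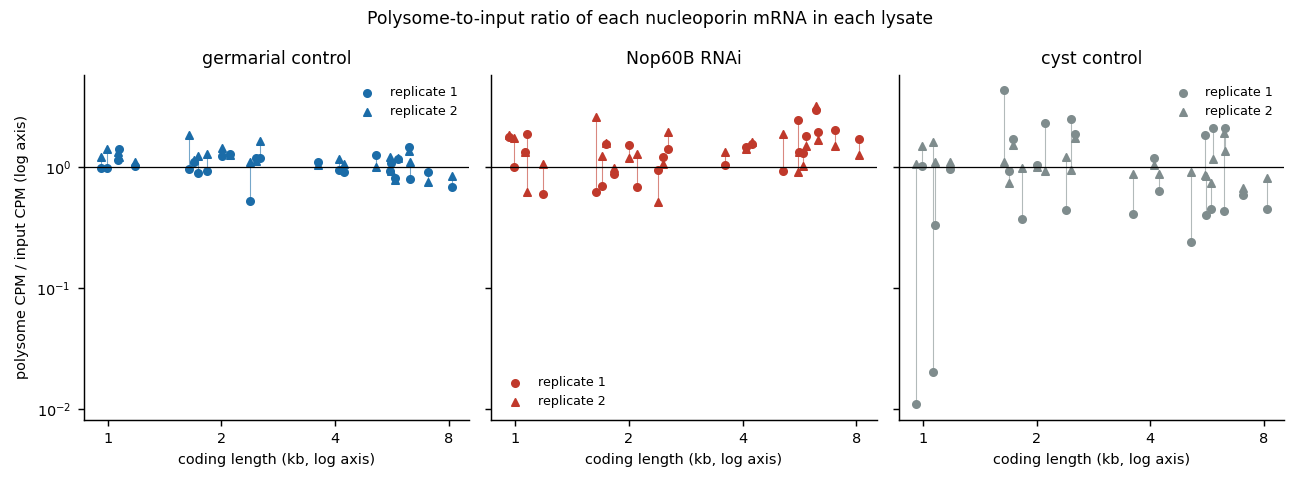
Polysome-to-input ratio of CPM (y axis, log scale) of each nucleoporin mRNA against its coding length in kilobases (x axis, log scale), by genotype; circles are replicate 1, triangles replicate 2, and lines join the 2 lysates. In Nop60B RNAi most mRNAs over 4 kb lie above 1, and in the cyst control the 2 points far below 1 are Nup37 and Nup44A in the shallow library.

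Glutamine tracts and promoter motifs were also looked up. Of the members, only Nup358 had a run of 5 glutamines, 3.85% against 8.14% of other coding genes, and 0 had 5 consecutive in-frame CAG codons, against 4.25%. The letters TATCGATA, the core of the DNA replication-related element (DRE) that is common at fly housekeeping promoters, were searched from 250 bases before to 50 after each gene start. The motif is its own reverse complement, so both strands were covered. It was found in 7 of 26 member promoters (26.9%), against 7.86% of 16593 promoters and 12.2% of those of tested genes. The 7 were Gp210, Mgtor, Nup188, Nup50, Nup54, Nup58 and Nup75. In Nup58 it began 11 bases before the annotated start, as shown from chr3R:19644989-19645048 (dm6, plus strand, motif in capitals).
Nup58: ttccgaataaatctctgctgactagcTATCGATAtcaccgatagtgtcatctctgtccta
Members with and without the motif had input medians of -0.84 and -0.88 against the germarial control, so the motif did not separate them.

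Nup93-1 and Nup93-2 are a pair of related genes for 1 inner ring protein. Their proteins shared 47.1% of 790 aligned residues, their coding sequences 68.6% of aligned bases and 0 words of 25 bases, so reads of one would rarely match the other. Nup93-1 was the more abundant, at 46.5 ± 3.9 RPKM in germarial control input (SD, n = 2) against 12.3 ± 1.6 for Nup93-2, and at 23.7 ± 2.7 against 6.52 ± 0.14 in Nop60B RNAi input. Both were thus about as far from the germarial control. For 9 members, Nup54, Nup154, Nup35, Nup93-2, Ndc1, Nup50, Nup107, Nup160 and Nup75, an exon overlaps a gene on the opposite strand; the library kit was directional, but the strand setting of the counting is not given in the sources used here.

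Genes that work with the pore were read from lists. Of the 4 pore proteins outside the symbol rule (Rae1, Sec13, Aladin and Gle1), 0 had an adjusted p under 0.05 in any comparison in edgeR, and all 4 were below 0 against the germarial control, with medians of -0.87 in input and -0.91 in polysomes; 2 in input and 0 in polysomes had an unadjusted p under 0.05. Of 22 transport receptors and Ran cycle genes, 21 were tested, and against the germarial control 2 fell and 0 rose in input (median -0.33), where 4.16% of all genes were called, and 3 fell and 0 rose in polysomes (median -0.10), where 8.64% were. Rcc1, the chromatin-bound exchange factor that charges Ran with GTP, was at 406 and 425 CPM in germarial control input and at 68.3 and 69.4 in Nop60B RNAi input (log2 fold change -2.59 ± 0.56, SE, edgeR adjusted p = 0.0299). RanGAP, which acts at the cytoplasmic face, was at 227 and 242 CPM against 68.8 and 69.9 (-1.76 ± 0.33, adjusted p = 0.0209). Nxt1, the partner of the mRNA exporter, fell in polysomes only by this test, from 45.0 and 64.3 CPM to 14.8 and 16.98 (-1.78 ± 0.48, adjusted p = 0.0438), and its input values were 57.4 and 51.7 against 42.9 and 37.0; the change of its ratio had an adjusted p of 1.00. In polysomes Rcc1 had -2.66 ± 0.56 (adjusted p = 0.0191) and RanGAP -1.34 ± 0.33 (adjusted p = 0.0337). Against the cyst control, where 9.5% of all genes were called in polysomes, 1 of the 21 was, Nxt1 (-1.70 ± 0.48, adjusted p = 0.0490), and 0 in input, where 6 had an unadjusted p under 0.05. Rcc1 and RanGAP stood farther below the germarial control than any nucleoporin mRNA in input.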

How the data were processed

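Polysome-associated and input RNA from Drosophila ovaries was sequenced in 12 libraries. Per the labels and the study's methods, the authors selected poly(A) RNA, prepared directional single-end libraries, aligned reads to dm6 with HISAT2 (2.1.0 in the submitters' processing notes) and counted them per gene with featureCounts (1.4.6). The deposited values are raw counts of reads per FlyBase gene, 1 file for each library, with no normalization. Their own comparison of fractions used a further tool whose settings were not repeated here.

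From these counts, edgeR 4.0.16 (R 4.3.3) was run with TMM scaling, a filter that kept 10035 of 17023 genes, and the quasi-likelihood test with 1 mean for each of the 6 groups. The Benjamini-Hochberg adjustment covered all tested genes, with a threshold of 0.05. A second call rule, the study's criterion, was a fold of at least 2 with an unadjusted P under 0.05. The study gave a 2-fold change and P under 0.05 for polysome association only, without saying whether P was adjusted. Its shared targets came from the overlap of both controls, whereas each comparison was taken singly here. Alternatives were DESeq2 1.42.0, limma 3.58.1 (voom with quality weights), other size factors, other filters, fewer libraries and a replicate block. With 2 libraries against 2, an exact permutation test cannot go below p = 0.333, so none was used. Total counts ranged from 2780781 to 21626125, and the shallowest library, replicate 1 of the cyst control polysomes, is the least precise.

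Genes were named through Ensembl release 115, which lists 16647 of the 17023 identifiers. Coordinates of coding sequences and gene starts came from the same Ensembl annotation. The bases, including the sequences shown, were read from the RefSeq dm6 genome with Biopython 1.88. The members, the lists and the tests were chosen with earlier results of these data known. Each member was to be named with its level, with statistics for members at an adjusted p under 0.05 or, where under 3 passed, for the 3 with the smallest unadjusted P. Other values were given after they were seen. From the lists, genes with an adjusted p under 0.05 were named, up to 4 for each list. The germline marker vas, the muscle marker wupA and the import receptor Pen were not matched to an identifier and are not used here.

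Whether replicate numbers pair libraries was checked by the correlation of deviations from group means. Input and polysome libraries of the same number correlated at 0.0362 in the germarial control, -0.000803 in Nop60B RNAi and 0.286 in the cyst control, and libraries of different genotypes at -0.0504 to 0.151. Input and polysomes come from the same lysate by the study's methods, and the lysate was a block in an alternative fit of the ratios. The ratios given come from the fit without it unless stated. For comparisons between genotypes the replicate block was the replicate number, which joins separate lysates.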

Additional observations from a re-analysis of the deposited data

Results flagged for a closer look

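For 3 members, the polysome-to-input ratio was below 1 in both germarial control lysates and above 1 in both Nop60B RNAi lysates, against 3.97% of all genes tested. The log2 change of the ratio was 1.09 for Mgtor, 0.97 for Nup358 and 0.55 for Nup153, and none passed the interaction test in edgeR (adjusted p = 1.00 for each). Mgtor had ratios of 0.909 and 0.750 in the germarial control and 2.00 and 1.48 in Nop60B RNAi.

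Against the cyst control, 6 members stood on opposite sides of 1 in this way, higher in Nop60B RNAi, against 6.22% of all genes. The changes were 1.45 for Mgtor (unadjusted P = 0.0453 in the edgeR interaction test), 0.97 for Nup153 (0.0447), 1.19 for Nup358, 1.01 for Nup160, 0.92 for Gp210 and 0.71 for Nup133, with edgeR adjusted p from 0.767 to 0.936. Between the 2 controls, Nup133 at -0.56 and Nup50 at -0.48 were above 1 in both germarial control lysates and below 1 in both cyst control lysates, as were 5.09% of all genes (adjusted p = 1 for each). Replicate 1 of the cyst control polysomes is the shallowest library and enters both of these comparisons.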

How the results depend on the processing

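No member had an adjusted p under 0.05 in any of the 12 comparisons of the edgeR fit, and RLE size factors changed none of these counts. For Nop60B RNAi against the germarial control in input, 3 members were called by the study's criterion, 3 by DESeq2, 25 by voom, 2 with no filter, 24 with only the libraries compared, and 17 without cyst control lysate 1 or without all cyst control libraries. These settings called 15.5%, 56.6%, 7.69%, 61.3%, 30.4% and 30.8% of all genes in either direction, from DESeq2 on in that order. In polysomes the counts were 5 by the criterion, 3 by DESeq2, 8 by voom, 8 with only the libraries compared, 1 under the filter of at least 10 counts in at least 6 libraries, 1 with the replicate block, 12 without cyst control lysate 1 and 11 without the cyst control libraries, and from DESeq2 on these called 23.2%, 30.9%, 28.4%, 11.1%, 8.52%, 40.2% and 39.8% of all genes. Against the cyst control in input they were 9 by the criterion, 8 by DESeq2, 10 by voom, 5 with no filter and 16 without lysate 1 (16.4%, 18.3%, 7.05% and 30.2% of all genes). In polysomes they were 7, 3 by DESeq2 and 11 without lysate 1 (23.8% and 32.9%). Between the controls they were 2 by the criterion, 1 by DESeq2, 1 by voom, 1 with no filter and 4 without lysate 1 in input (13.9%, 17%, 6.50% and 22.1%), and 5, 4 by DESeq2, 1 with no filter and 7 without lysate 1 in polysomes (18%, 9.04% and 19.5%). For the ratio in Nop60B RNAi they were 1 by the criterion and 2 without lysate 1 or without the cyst control libraries (4.52% and 4.19%), and for its change against the cyst control 1 by the criterion. The cause of these differences was not tested.

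Leaving out 1 library at a time, the counts ran from 0 to 9 and 0 to 6 against the germarial control in input and polysomes, 0 to 11 in both fractions against the cyst control, and 0 to 3 and 0 to 13 between the controls. They ran from 0 to 11 for the ratio in the cyst control, 0 to 11 for its change between Nop60B RNAi and the cyst control, and 0 to 7 for that between the controls, and stayed at 0 for the other 3. The replicate block changed no other call. For the 3 members with the smallest P in each comparison, 630 log2 values under the alternatives stayed on their side of the threshold, 105 moved past it and none changed sign. Nop60B and the genes of other lists were not run under the alternatives.

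Depth limits the cyst control polysomes most: Nup37 and Nup44A had 1 and 2 counts in replicate 1, and their values there rest on those counts.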

Other observations

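Of 9 genes of the nuclear lamina and nuclear membranes, 2 rose and 0 fell in Nop60B RNAi polysomes against the germarial control. Calls were at an edgeR adjusted p under 0.05, where 8.64% of all genes were called, and the median over the list was -0.16. LamC, an A-type lamin of differentiated cells, was at 76.8 and 79.3 CPM in the control and 371 and 186 after depletion (log2 fold change 1.84 ± 0.35, SE, adjusted p = 0.0141). Msp300, a nesprin abundant in muscle, was at 30.1 and 25.5 CPM against 462 and 154 (3.47 ± 0.80, adjusted p = 0.0274). Sheath muscle markers were also higher in these libraries, 33278 and 27806 CPM against 5072 and 5137, and their part was not tested. In input, where 4.16% of all genes were called, 0 of the 9 were, with 2 lower and 2 higher at an unadjusted p under 0.05.

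Relative to the cyst control, where 9.5% of all genes were called in polysomes and 4.5% in input, LamC rose in polysomes (1.32 ± 0.34, adjusted p = 0.0376) and MAN1, an inner nuclear membrane protein, fell (-2.04 ± 0.51, adjusted p = 0.0335), while in input klar, a nuclear envelope motor anchor, fell (-1.27 ± 0.28, adjusted p = 0.0304).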
